A study of Mus musculus with 9 samples.

Results

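HIF target genes outside glycolysis were followed in mouse corneal epithelial cells kept at 21%, 8% or 1% oxygen. The members were a list of 32 gene symbols, of which 30 had a row among the 26445 entries of the deposited expression table. Cxcr4 and Ppp1r3c were not analysed here. All 9 libraries came from the line that the labels call iCell-0093a, of wild-type genotype, and the groups differed only in the labelled oxygen level, with 3 libraries at 21% (the highest level, used as reference), 3 at 8% and 3 at 1%. The sources used here do not give the length of the exposure. The labels do not say whether the libraries of a level came from separate cultures, so p-values measure the spread between these libraries, which may be technical. Values are FPKM, fragments scaled by transcript length and by the mapped total of the library, which corrects for transcript length and library size.

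Hypoxia-inducible factor (HIF) is a pair of proteins, an oxygen-regulated alpha subunit and the stable partner ARNT. Prolyl hydroxylases use oxygen to mark the alpha subunit for destruction, so it accumulates when oxygen falls and binds short DNA elements with the core ACGTG or GCGTG near its target genes. Beyond the glycolytic enzymes, its targets regulate pH, mitochondria, growth signalling, lipid storage, the matrix and HIF itself. Many of these genes also answer to other signals such as growth factors, amino acid shortage or circadian clocks.

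The libraries had FPKM sums between 317704 and 333178, and sequencing depth is unknown because the table holds no read counts. Among the 21% libraries, replicate 3 stood furthest from the others, with a median deviation of 0.875 (log2) in a list of DNA replication and proliferation genes against −0.349 and 0.0978 in the other 21% libraries. The simple epithelial keratins Krt8 and Krt18 lay between 447 and 683 FPKM, whereas Pax6, which defines the eye lineage, did not exceed 0.0208 FPKM and Trp63, a regulator of stratified epithelium, did not exceed 0.836. These defining markers were thus at or near 0 in a line labelled as corneal epithelium. Among 10 leukocyte markers 3 were tested and Cd68 and Csf1r were called higher at 8% than at 21% oxygen, beside 8.38% of all tested genes. Cd68 made up most of the list's summed level, with means of 25.4, 43.3 and 35.8 FPKM at 21%, 8% and 1%. Csf1r did not exceed 1.58 FPKM, and Cd14, the other tested marker, had means of 4.55, 3.64 and 4.64. The summed level of that list was 25.1 to 33.4 FPKM at 21%, 45.7 to 50.7 at 8% and 37.3 to 44.9 at 1%, while the defining markers Ptprc and Adgre1 stayed at or below 0.0101 and 0.015 FPKM.

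Of the 30 members in the table, 24 reached 1 FPKM in at least 3 of the 9 libraries and entered the test. The other 6 stayed below 1 FPKM in every library. These were the collagen crosslinking enzymes Lox (at most 0.368 FPKM) and Loxl2 (0.269), the hormone Stc1 (0.553), the lipoprotein receptor Vldlr (0.087), the nuclear receptor Rora (0.0187) and the membrane protein Tmem45a (0.0489). Tmem45a was listed at 0 in 8 of the 9 libraries. Stc1 had its highest value in 21% replicate 3, and its values were 0.33, 0.151 and 0.553 FPKM at 21%, 0.121, 0.178 and 0.183 at 8%, and 0.332, 0.257 and 0.306 at 1%.

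The tested members did not share 1 response to falling oxygen. Their means fell into 3 main orders, and 12 of 24 (50%) had their lowest mean at the intermediate level of 8%, near the 40.6% of all tested genes. The lowest mean was at 21% in 11 members (45.8% beside 29.7% of all tested genes) and at 1% in 1 (4.17% beside 29.7%). In 8 members the mean was highest at 1% and lowest at 8% oxygen (Car12, Mif, Higd1a, Fam162a, Ndrg1, Hilpda, Ero1l and Ankrd37). That is 33.3% of the members, beside 9.45% of all 11856 tested genes. In 6 members it was highest at 8% and lowest at 21% (Bhlhe41, Cited2, Maff, Pim1, Ccng2 and Narf), 25% beside 21% of all tested genes. In 5 members the mean stepped up with each fall in oxygen (Bhlhe40, Mxi1, Car9, Efna1 and Errfi1), 20.8% beside 8.67%. Nt5e, Stc2, Ak4 and Ddit4 were highest at 21% and lowest at 8%, 16.7% beside 31.2% of all tested genes. Wsb1 was highest at 8% and lowest at 1%. These orders are of means and describe the data, since most neighbouring means lay within the spread of their libraries.

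**Figure D1:**
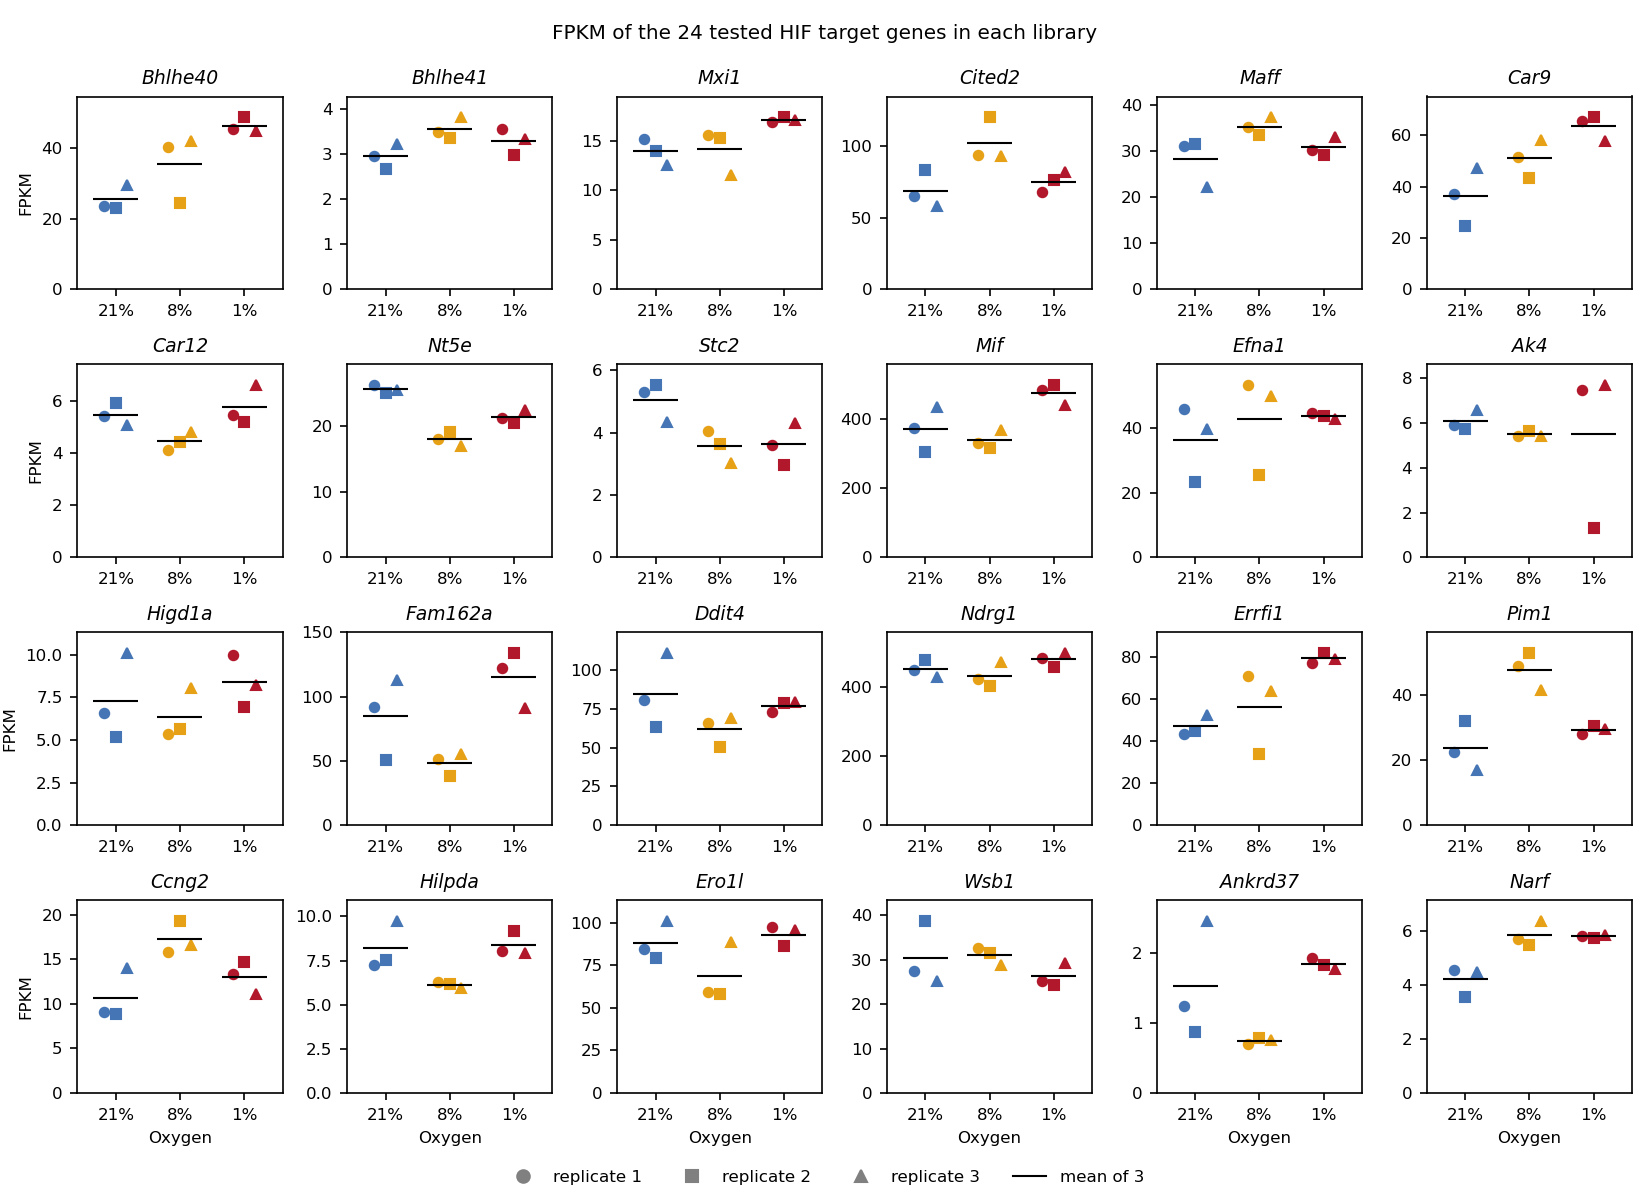
FPKM (vertical axis, linear from 0) of each of the 24 tested members at 21%, 8% and 1% oxygen (horizontal axis). Points are single libraries, with a marker for each replicate number, and lines are means of 3. Pim1 and Cited2 peak at 8%, Fam162a and Ankrd37 dip there, and Car9 steps up from 36.4 through 51.1 to 63.5 FPKM.

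Promoter sequence is shown for 4 members that stand for these orders and have a single start among the RefSeq promoters used. They are Ankrd37 and Fam162a (lowest at 8%), Cited2 (highest at 8%) and Car9 (stepping up). In GENCODE M21 Ankrd37 has 6 transcripts and extends to 46005707, upstream of the sequence shown. The sequences are from RefSeq on GRCm38.p6, the assembly that mm10 denotes, and run 5′ to 3′ along the gene from 250 bases before the annotated start to 50 after it. They cover chr8:45999801-46000100 on the minus strand (Ankrd37), chr16:36071512-36071811 on the minus strand (Fam162a), chr10:17722978-17723277 on the plus strand (Cited2) and chr4:43506776-43507075 on the plus strand (Car9). Capitals mark ACGTG or GCGTG on either strand, and on the opposite strand these read CACGT and CACGC. Matches that touch or overlap run together, and the palindrome CACGTG counts once on each strand.
Ankrd37: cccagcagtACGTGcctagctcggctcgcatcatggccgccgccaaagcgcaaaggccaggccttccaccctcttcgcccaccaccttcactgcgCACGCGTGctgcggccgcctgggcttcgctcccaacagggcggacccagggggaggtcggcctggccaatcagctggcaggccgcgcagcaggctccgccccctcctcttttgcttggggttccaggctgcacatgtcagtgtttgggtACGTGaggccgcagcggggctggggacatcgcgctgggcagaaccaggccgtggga
Fam162a: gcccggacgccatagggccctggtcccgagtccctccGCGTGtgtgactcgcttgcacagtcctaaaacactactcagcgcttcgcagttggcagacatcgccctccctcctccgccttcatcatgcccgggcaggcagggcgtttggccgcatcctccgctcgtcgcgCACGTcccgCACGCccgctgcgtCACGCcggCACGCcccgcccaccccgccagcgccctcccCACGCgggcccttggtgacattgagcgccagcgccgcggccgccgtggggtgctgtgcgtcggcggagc
Cited2: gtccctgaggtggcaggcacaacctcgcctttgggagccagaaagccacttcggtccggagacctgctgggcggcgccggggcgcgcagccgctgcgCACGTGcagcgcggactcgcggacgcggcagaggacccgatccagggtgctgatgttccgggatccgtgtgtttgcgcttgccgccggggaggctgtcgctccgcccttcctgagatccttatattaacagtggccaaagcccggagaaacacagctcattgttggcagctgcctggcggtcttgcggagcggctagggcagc
Car9: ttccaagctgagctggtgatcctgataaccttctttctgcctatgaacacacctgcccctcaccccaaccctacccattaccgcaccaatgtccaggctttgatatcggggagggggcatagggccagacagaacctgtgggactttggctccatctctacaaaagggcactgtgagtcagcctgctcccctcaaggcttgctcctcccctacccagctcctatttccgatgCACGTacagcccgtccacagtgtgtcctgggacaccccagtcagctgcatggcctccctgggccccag
Ankrd37 held 4 matches, Fam162a 6 and Car9 1, which began 18 bases before the start. The 2 matches of Cited2 were both strands of a single CACGTG. RefSeq promoters were at hand for 21 of the 24 tested members, on 33 annotated starts, and 25 of these 33 (75.8%) held ACGTG or GCGTG on either strand. The share was 63.8% of 10634 promoters of tested genes and 43.8% of all 32851 promoters. For ACGTG alone it was 48.5%, 26.4% and 19.6%. Windows of neighbouring starts can overlap, as for Ak4 and Hilpda, so some matches were counted more than once in these shares. Counted by gene, 20 of 21 tested members and 5820 of 8335 tested genes had a promoter with ACGTG or GCGTG. Promoters of members from each of the 3 main orders held matches. Pim1 had 2 starts, of which 1 held a CACGTG and the other no match. Hilpda had 2 starts with 1 and 3 matches. A match is a run of letters and not a measured binding site.

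Among the transcription regulators, Bhlhe40 and Cited2 varied most. Bhlhe40 encodes a basic helix-loop-helix repressor that also acts in the circadian clock (ENSMUSG00000030103, chromosome 6, 108660629 to 108666925, in GENCODE M21 on GRCm38, as for all gene positions here). Its levels were 23.8, 23.2 and 29.7 FPKM at 21% oxygen, 40.4, 24.6 and 42.2 at 8%, and 45.4, 48.9 and 45.1 at 1%. Every 1% library lay above every other library, and 8% replicate 2 lay with the 21% libraries. Cited2 encodes a protein that competes with HIF alpha for coactivators and so limits HIF (ENSMUSG00000039910, chromosome 10, 17723218 to 17725674). Its levels were 64.9, 83.7 and 57.9 FPKM at 21%, 94.1, 120.3 and 93.3 at 8%, and 68, 76.1 and 81.9 at 1%. The 8% libraries were above all others, while 1% and 21% overlapped. Bhlhe41, the paralogue of Bhlhe40, stayed between 2.66 and 3.81 FPKM, with 8% above 21%. Maff, a small MAF protein, stood at 31, 31.5 and 22.2 FPKM at 21%, 35.1, 33.4 and 37.3 at 8%, and 30.2, 29.1 and 33.1 at 1%, so that 8% lay above all others. Mxi1, an antagonist of MYC, stayed between 11.6 and 17.4 FPKM. For Mxi1 the 1% libraries, at 16.9, 17.4 and 17.1 FPKM, lay above all others.

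Car9, Car12 and Nt5e are enzymes of the cell surface. Car9, the carbonic anhydrase that is among the most used markers of HIF activity (ENSMUSG00000028463, chromosome 4, 43506966 to 43513729), stood at 37.3, 24.6 and 47.4 FPKM at 21%, 51.7, 43.3 and 58.2 at 8%, and 65.6, 67.1 and 57.8 at 1%. The 1% libraries were all above the 21% libraries, while 8% overlapped both. Car12, another carbonic anhydrase, had 5.4, 5.9 and 5.07 FPKM at 21%, 4.12, 4.41 and 4.79 at 8%, and 5.44, 5.19 and 6.6 at 1%, so that 8% lay below both. Nt5e, which makes extracellular adenosine (ENSMUSG00000032420, chromosome 9, 88327197 to 88372092), gave 26.3, 25.1 and 25.5 FPKM at 21%, 18.1, 19.2 and 17 at 8%, and 21.3, 20.5 and 22.5 at 1%. Its 3 levels did not overlap at all, with 1% in the middle.

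The secreted and ligand genes had little in common. Mif, a cytokine gene and the second most abundant member, stood at 374, 304 and 434 FPKM at 21%, 329, 316 and 368 at 8%, and 483, 497 and 440.2 at 1%. The 1% libraries were above all others. Stc2, a glycoprotein hormone gene that the integrated stress response also induces, stood at 5.3, 5.53 and 4.36 FPKM at 21%, 4.05, 3.65 and 3.03 at 8%, and 3.6, 2.96 and 4.31 at 1%. Every 21% library was above every other library. Efna1, a membrane-bound ephrin ligand, gave 45.8, 23.3 and 39.5 FPKM at 21%, 53.2, 25.5 and 49.8 at 8%, and 44.5, 43.7 and 42.7 at 1%. The libraries numbered 2 at 21% and 8% were lower than all others, so that no order of the levels could be read.

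The mitochondrial members were led by Fam162a, which encodes a mitochondrial protein linked to hypoxic cell death (ENSMUSG00000003955, chromosome 16, 36043761 to 36071594). It stood at 92.1, 50.4 and 113 FPKM at 21%, 51.6, 38.5 and 55.4 at 8%, and 122, 134 and 91 at 1%. The 1% libraries were all above the 8% libraries, and the 21% libraries spread over both ranges. Higd1a, a respiratory chain assembly factor, gave 6.59, 5.18 and 10.1 FPKM at 21%, 5.35, 5.63 and 8.04 at 8%, and 10, 6.91 and 8.23 at 1%, with overlap throughout. Ak4, a nucleoside kinase of the mitochondrial matrix, stayed between 5.41 and 7.7 FPKM in 8 libraries and was 1.32 in 1% replicate 2. That value set its standard error, the largest of the tested members in every comparison.

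Pim1 and Ccng2 of the growth and stress group peaked at 8% oxygen. Pim1, a serine/threonine kinase of survival signalling (ENSMUSG00000024014, chromosome 17, 29490753 to 29496112), stood at 22.5, 32.2 and 17.1 FPKM at 21%, 49.2, 53.1 and 41.7 at 8%, and 28, 30.7 and 29.6 at 1%. The 8% libraries were above all others. Ccng2, an unconventional cyclin tied to cell cycle arrest (ENSMUSG00000029385, chromosome 5, 93267257 to 93276231), gave 9.13, 8.87 and 14 FPKM at 21%, 15.8, 19.3 and 16.6 at 8%, and 13.4, 14.7 and 11.1 at 1%. Again 8% lay above both other levels, which overlapped.

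Errfi1, a feedback inhibitor of the EGF receptor, behaved like Bhlhe40. It stood at 43.2, 44.9 and 52.5 FPKM at 21%, 70.8, 33.9 and 63.6 at 8%, and 76.8, 81.7 and 78.8 at 1%. The 1% libraries were above all others and 8% replicate 2 was the lowest of the 9. Ddit4, an inhibitor of mTOR complex signalling that the integrated stress response also induces, gave 80.4, 63.1 and 111 FPKM at 21%, 66, 50.6 and 69 at 8%, and 72.9, 78.8 and 79.2 at 1%. The 1% libraries were above the 8% libraries, and 21% overlapped both. Ndrg1, a stress-responsive differentiation gene and the most abundant member by mean FPKM at every level, stayed between 404 and 499 FPKM at every oxygen level.

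Storage, folding and remaining members added Hilpda, Ero1l, Ankrd37 and Narf. Hilpda, a lipid droplet protein that inhibits lipolysis (ENSMUSG00000043421, chromosome 6, 29272488 to 29275446), stood at 7.27, 7.53 and 9.74 FPKM at 21%, 6.3, 6.18 and 5.92 at 8%, and 8.06, 9.16 and 7.91 at 1%, with 8% below all others. Ero1l, the oxidase that supplies disulfide bonds to the endoplasmic reticulum, gave 84.4, 79.5 and 101 FPKM at 21%, 59.3, 58.3 and 88.7 at 8%, and 97.5, 86 and 95.4 at 1%. Here 8% replicate 3 lay with the other levels. Ankrd37, an ankyrin repeat protein (ENSMUSG00000050914, chromosome 8, 45996902 to 46005707), had 1.24, 0.874 and 2.46 FPKM at 21%, 0.698, 0.789 and 0.763 at 8%, and 1.93, 1.83 and 1.78 at 1%. The 8% libraries were below all others, and 21% replicate 3 was the highest of the 9. Narf, a nuclear protein that binds prenylated prelamin A (ENSMUSG00000000056, chromosome 11, 121237253 to 121255856), had 4.57, 3.56 and 4.49 FPKM at 21%, 5.7, 5.48 and 6.37 at 8%, and 5.8, 5.74 and 5.84 at 1%. Both lower levels lay above 21% and overlapped each other. Wsb1, a substrate receptor of a ubiquitin ligase, stayed between 24.2 and 38.7 FPKM with overlap throughout.

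Between 8% and 21% oxygen, 4 tested members rose and 2 fell by limma's moderated test on log2(FPKM + 1) with Benjamini-Hochberg adjustment over all 11856 genes. Pim1 rose from 24 ± 7.66 to 48 ± 5.78 FPKM (SD over n = 3 libraries), a log2 change of 1.01 with SE 0.194 and adjusted p = 0.00944. Ccng2 rose by 0.67 on the log2 scale (SE 0.171, adjusted p = 0.0261), Cited2 by 0.57 (SE 0.151, adjusted p = 0.0278) and Narf by 0.40 (SE 0.089, adjusted p = 0.0162). Nt5e fell from 25.6 ± 0.648 to 18.1 ± 1.13 FPKM (−0.48, SE 0.0612, adjusted p = 0.00231), and Hilpda fell from 8.18 ± 1.35 to 6.14 ± 0.195 (−0.35, SE 0.103, adjusted p = 0.041). Car9 (0.51, adjusted p = 0.113), Bhlhe40 (0.44, 0.128), Ndrg1 (−0.07, 0.572), Ankrd37 (−0.48, 0.107) and Fam162a (−0.74, 0.0977) did not pass, the second value being the adjusted p.

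As background, 8.38% of all tested genes were called higher at 8% and 14.9% lower. At an unadjusted p under 0.05 by limma there were 8 members higher and 7 lower, beside 14.3% and 23.7% of all tested genes. The libraries of the levels did not overlap in 6 members with 8% higher and 6 with 8% lower, beside 15.4% and 25.5% of all 11856. Over the 24 members the median change was −0.02 (log2), with 12 estimates on each side of 0, and −0.04 over all tested genes. The balance of all calls rested on the scaling, with 993 higher and 1772 lower as deposited, 1308 and 1351 after median-ratio rescaling, and 1185 and 1356 after quantile normalization.

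Pim1 and Nt5e were called in all 17 alternatives, Narf in 14, Cited2 in 10, Ccng2 in 8 and Hilpda in 5. In the fit to the 6 libraries compared only Pim1 and Nt5e were called. The call of Cited2 was lost when 21% replicate 1 or 3 or an 8% library was left out (adjusted p from 0.00969 to 0.0799). That of Ccng2 was lost without 21% replicate 1 or 2 or any 8% library (0.00559 to 0.166), and that of Narf without 8% replicate 3 (from 0.0106 up to 0.0576). That of Hilpda was lost on leaving out 21% replicate 3, an 8% library or 1% replicate 1 or 3, and after either rescaling (0.0362 to 0.114). Without 21% replicate 2, Fam162a (−1.07), Ddit4 (−0.62) and Ankrd37 (−0.67) were also called lower, with adjusted p = 0.0117, 0.0345 and 0.027, which made 5 members lower. Over their alternatives the adjusted p of these 3 ran to 0.246, 0.359 and 0.226. Without 21% replicate 3, Car9 was called higher (0.72, adjusted p = 0.0326; up to 0.277) and Stc2 lower (−0.49, 0.0443; up to 0.171). Without 8% replicate 2, Bhlhe40 (0.68, adjusted p = 0.011; up to 0.334) and Errfi1 (0.51, 0.0161; up to 0.987) were called higher, and without 8% replicate 3 Ero1l was called lower (−0.57, 0.0218; up to 0.315). The members called higher numbered 2 without 21% replicate 1 or 8% replicate 1 and 1 without 8% replicate 3. The members called lower numbered 1 without 8% replicate 1 or 2 or 1% replicate 1 or 3.

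**Figure D2:**
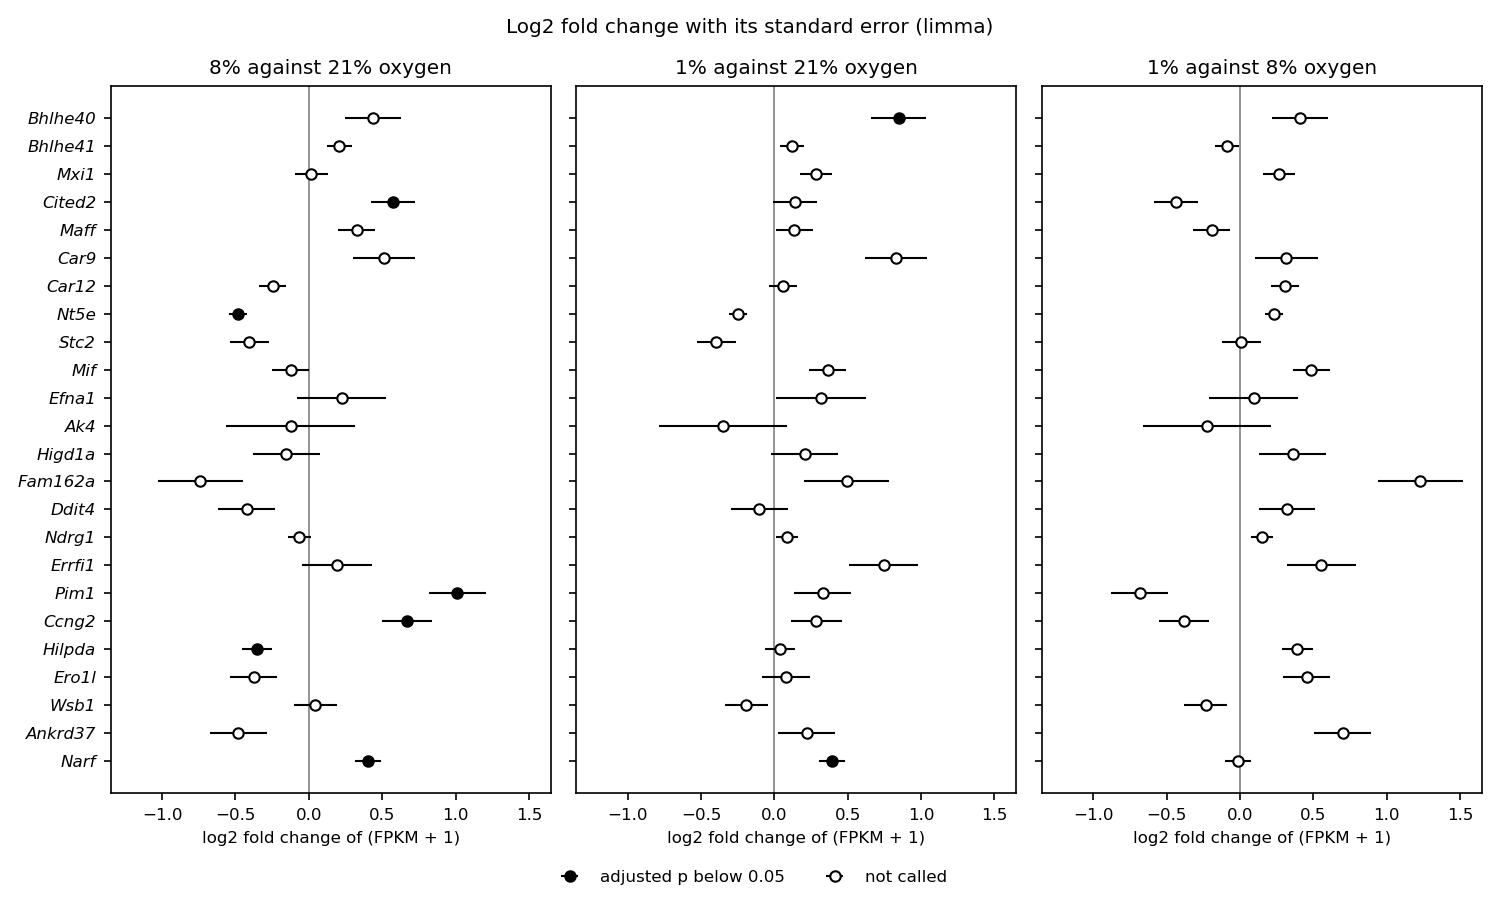
Log2 fold change of (FPKM + 1) for the 24 tested members (vertical axis) in the 3 comparisons, with standard errors as bars. Filled points passed an adjusted p of 0.05. Pim1 stands at 1.01 at 8% against 21% and at −0.68 at 1% against 8%, while Fam162a stands at −0.74 and 1.23.

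Between 1% and 21% oxygen 2 tested members rose and 0 fell. Bhlhe40 rose from 25.6 ± 3.61 to 46.5 ± 2.13 FPKM (SD over n = 3 libraries), a log2 change of 0.85 with SE 0.19 and limma's adjusted p = 0.0473. Narf rose from 4.2 ± 0.563 to 5.79 ± 0.048 FPKM (0.39, SE 0.089, adjusted p = 0.0497). Car9 had an estimate as large as that of Bhlhe40 and just missed the threshold, at 63.5 ± 4.99 against 36.4 ± 11.4 FPKM (0.83, SE 0.212, adjusted p = 0.0626). Errfi1 (0.75, SE 0.236, adjusted p = 0.106), Mif (0.36, SE 0.126, 0.133), Mxi1 (0.28, SE 0.111, 0.17), Nt5e (−0.25, SE 0.0612, 0.0579) and Stc2 (−0.40, SE 0.133, 0.125) did not pass although their libraries did not overlap. Ndrg1 (0.09, SE 0.0769, adjusted p = 0.552), Hilpda (0.04, SE 0.103, 0.861) and Ddit4 (−0.10, SE 0.193, 0.798) had estimates close to their standard error or below it.

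As background, 1.35% of all tested genes were called higher at 1% and 2.89% lower, and at an unadjusted p under 0.05 by limma there were 6 members higher and 2 lower, beside 7.42% and 15.8% of all tested genes. The libraries did not overlap in 6 members with 1% higher and 2 with 1% lower, beside 9.06% and 19.2% of all tested genes. The estimate was above 0 in 19 of 24 members with a median of 0.17, and above 0 in 4748 of 11856 genes with a median of −0.05. All calls numbered 160 higher and 343 lower as deposited, 230 and 197 after median-ratio rescaling, and 159 and 174 after quantile normalization.

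Both calls at 1% against 21% were fragile. That of Bhlhe40 was lost without 21% replicate 1 or 2, 8% replicate 1 or 3 or any 1% library (adjusted p from 0.0144 to 0.157 in 17 alternatives). Narf lost its call when any library other than 21% replicate 3 was left out (0.0416 to 0.203). Without 21% replicate 3 the members called higher numbered 5, with Car9 (1.04, adjusted p = 0.025; up to 0.203), Mif (0.49, 0.042; up to 0.545) and Ankrd37 (0.47, 0.0363; up to 0.951) added. Without 8% replicate 2 Errfi1 was called (adjusted p = 0.0142; up to 0.259). The members called higher numbered 0 without 21% replicate 1 or 2, 8% replicate 1 or 3 or any 1% library.

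Between 1% and 8% oxygen, 0 members were called, while the estimate of Fam162a was larger than that of any member against 21%. It stood at 116 ± 22.1 against 48.5 ± 8.91 FPKM (SD over n = 3 libraries), a log2 difference of 1.23 with SE 0.289 and limma's adjusted p = 0.0985. Ankrd37 stood at 1.85 ± 0.0735 against 0.75 ± 0.0468 FPKM, a ratio of 2.46 between the means that the log2(FPKM + 1) scale gives as 0.70 (SE 0.194, adjusted p = 0.131). Mif stood 0.49 higher (SE 0.126, adjusted p = 0.117) and Hilpda 0.39 higher (SE 0.103, 0.12). Pim1 stood at −0.68 (SE 0.194, adjusted p = 0.136), and Cited2 stood at −0.43 (SE 0.151, 0.178).

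This comparison called very few genes of any kind, with 0.0675% of all tested genes higher at 1% and 0.059% lower. At an unadjusted p under 0.05 there were 9 members higher and 2 lower by the same limma fit, beside 9.62% and 9.33% of all tested genes. The libraries did not overlap in 10 members with 1% higher and 4 with 1% lower, beside 16.3% and 16.8% of all tested genes. The members' median was 0.25, with 16 of 24 estimates above 0, and the median of all tested genes was −0.0031.

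The number of calls changed with the 21% libraries in the fit. Fitted to the 8% and 1% libraries alone, limma called 265 genes higher and 219 lower instead of 8 and 7. Among them Mif (adjusted p = 0.0358), Fam162a (0.0341), Hilpda (0.0396) and Ankrd37 (0.0167) were higher and Pim1 (0.0292) was lower. The same 4 and 1 members were called in the fit without 21% replicate 3, and Fam162a alone without 21% replicate 2 (0.0449). Over all genes, 238 higher and 197 lower were called without 21% replicate 3, 71 and 52 without 21% replicate 2, and 2 and 1 without 21% replicate 1. The cause was not tested. Over all alternatives the adjusted p reached 0.321 for Mif, 0.296 for Fam162a, 0.372 for Hilpda, 0.336 for Ankrd37 and 0.344 for Pim1, each with the same sign throughout.

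Variation between libraries of a level was as large as many differences between levels. At 21% oxygen, replicate 2 held the lowest value of its level for 14 of the 24 members and replicate 3 the highest for 13. Car9, Fam162a, Mif, Ddit4, Higd1a and Ankrd37 all had this pattern. The HIF targets of glycolysis deviated in the same sense, with list medians of −0.0322, −0.274 and 0.126 (log2) in 21% replicates 1, 2 and 3. DNA replication and proliferation genes did so as well, at 0.0978, −0.349 and 0.875. At 8% oxygen, replicate 2 was lowest for 12 members, by the widest margin for Errfi1, Efna1 and Bhlhe40. Immediate early genes had list medians of 0.103, −0.237 and 0.0497 in 8% replicates 1, 2 and 3, and mitochondrially encoded genes took 6.02%, 8.52% and 6.28% of the FPKM sum. The part of these differences in the members' results was not tested. The SD was smallest at 1% for 11 of the 24 members, at 8% for 12 and at 21% for 1, and it was largest at 1% for 4, Ak4 among them.

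**Figure D3:**
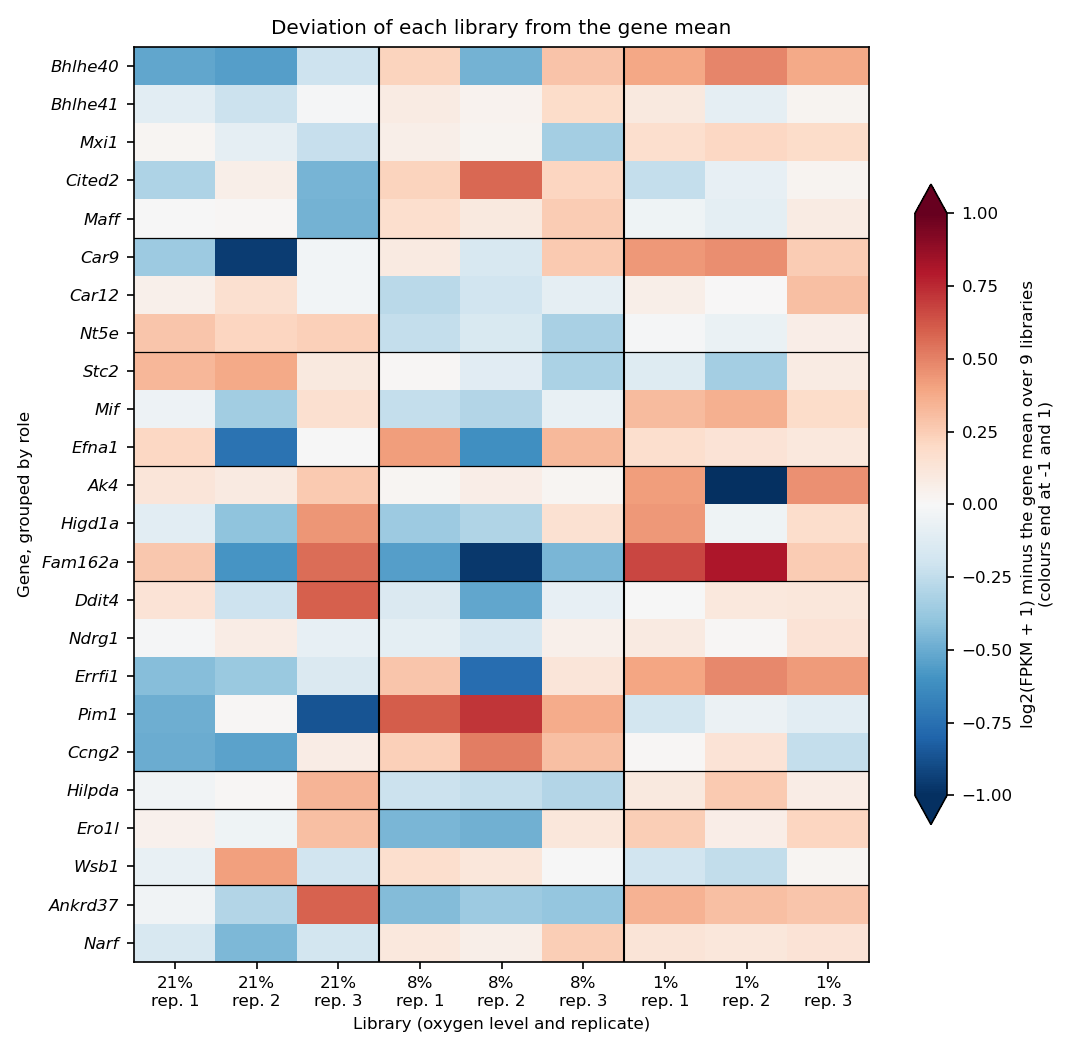
Deviation of log2(FPKM + 1) in each library (horizontal axis) from the gene's mean over the 9 libraries, for the 24 tested members grouped by role (vertical axis). Red is above and blue below the mean. Car9 is darkest in 21% replicate 2, blue cells of Bhlhe40, Efna1 and Errfi1 stand out in 8% replicate 2, and Ak4 is blue in 1% replicate 2, where it measured 1.32 FPKM.

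Stc2 and Ddit4 are also known targets of the integrated stress response, whose genes were lower at 8% and 1% oxygen. Of 20 tested genes of that list 15 fell at 8% and 10 fell at 1% against 21% oxygen, with medians of −0.54 and −0.56, and 0 rose in either comparison. Vegfa, which fell at 8%, is also on the list of further HIF targets below, and Atf3 is also on that of immediate early genes. Among all tested genes, 14.9% were called lower at 8% and 2.89% at 1% against 21%. Stc2 had estimates of −0.41 and −0.40 in the same comparisons, and Ddit4 of −0.42 and −0.10. Neither member was called, and the part of the stress response in their levels was not tested. With a library left out, 3 to 12 genes of the list were called lower at 1% (3 without 21% replicate 1 or 1% replicate 1, 5 without 1% replicate 2) and 10 to 15 at 8%. Without all 3 libraries numbered 2, a setting chosen after seeing the data, 0 were called at 1% and 9 at 8%.

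**Figure D4:**
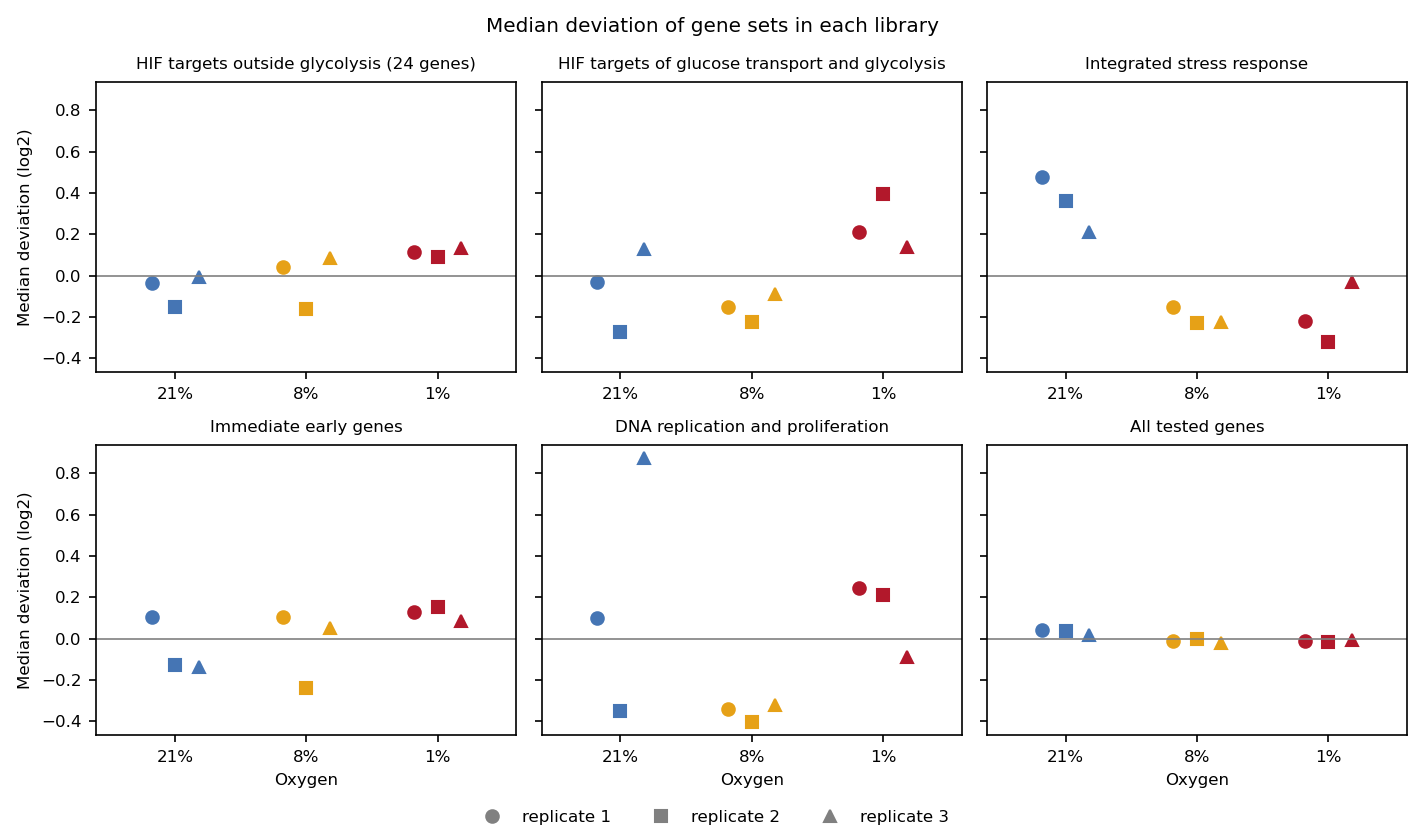
Median deviation (log2 scale, vertical axis) of gene sets in each library at 21%, 8% and 1% oxygen (horizontal axis), with 1 point per library. The 24 members lie between −0.164 and 0.135, the stress response is above 0 at 21% and below it elsewhere, and 21% replicate 3 stands at 0.875 for replication genes.

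Calls among other genes of the HIF pathway also went both ways at 8% against 21% oxygen. At 1% against 21% the called genes of this pathway were all higher. Of all tested genes, 8.38% were called higher and 14.9% lower at 8% against 21% oxygen, and 1.35% and 2.89% at 1% against 21%. The counts of this list and of the HIF target lists that follow were not tested against these shares. Of 10 HIF subunit and sensor genes 7 were tested, and 2 fell and 0 rose at 8% against 21% oxygen (Hif1a, adjusted p = 0.0154, and Egln2, 0.0161). At 1% against 21% the prolyl hydroxylase Egln3, itself a HIF target, rose from 32.6 ± 1.68 to 40.1 ± 1.75 FPKM (log2 fold change 0.29, adjusted p = 0.0457). Epas1, the HIF-2 alpha gene, did not exceed 0.0587 FPKM. With a library left out, the list had 0 to 3 genes lower (0 without 8% replicate 3, 1 without 8% replicate 1, 3 without 21% replicate 2) and 0 to 2 higher (2 without 21% replicate 2) at 8%. At 1% the call of Egln3 was lost in 8 of the 9 such fits and kept without 21% replicate 3.

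Of 21 glucose transport and glycolysis targets 19 were tested, 3 rose and 3 fell at 8% against 21%, and 2 rose at 1% against 21% (Aldoa and Aldoc, adjusted p = 0.0424 and 0.0459). Their median was −0.19 at 8% and 0.28 at 1% against 21%, and 0.26 at 1% against 8%, where 0 were called and 8 lay higher at an unadjusted p under 0.05. Pdk1, which restrains pyruvate entry into mitochondria, had the same order as Fam162a and Ankrd37, with 10.7, 8.14 and 15 FPKM at 21%, 5.08, 5.4 and 5.91 at 8%, and 13.2, 12.4 and 11.3 at 1%. It was called lower at 8% against 21% (−0.89, limma's adjusted p = 0.0107). The genes of the list that rose in that comparison were Eno2 (0.44, adjusted p = 0.0107), Aldoc (0.42, 0.0419) and Gpi1 (0.32, 0.0478). At 1% against 21% the list gave 6 genes higher without 21% replicate 3 and 0 without any other library. At 8% it gave 5 lower without 21% replicate 2 and 1 lower without 8% replicate 1 or 2. It gave 5 higher without 21% replicate 3 and 1 higher without 21% replicate 1 or 2, any 8% library or 1% replicate 1.

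Of 15 further HIF targets 12 were tested, with 2 rising and 2 falling at 8% and 2 rising at 1% against 21%. Adm, which encodes the vasodilator peptide adrenomedullin, stood at 2.34, 2.93 and 1.79 FPKM at 21%, 6.03, 6.4 and 4.86 at 8%, and 5.49, 4.9 and 4.76 at 1%. Both lower levels lay above 21% and overlapped each other, as for Narf among the members. Adm rose at 8% and at 1% (log2 changes of 1.02 and 0.86, limma's adjusted p = 0.00266 and 0.0188), and the difference between 1% and 8% did not pass (−0.16, adjusted p = 0.558). With a library left out, this list had 1 to 5 genes higher at 1% against 21%, with 5 without 21% replicate 3 and 1 without 21% replicate 1 or 1% replicate 1 or 2. At 8% it had 1 lower in place of 2 without any library other than 1% replicate 1 or 3.

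Exons of 9 of the 24 tested members share sequence with a gene on the opposite strand in GENCODE M21. The sources used here do not give the strand setting of the authors' counting, so reads of such pairs may not be told apart. Ankrd37 shares exon sequence with Ufsp2, which stood at means of 10.1, 11.3 and 10.5 FPKM at 21%, 8% and 1% oxygen, against 1.53, 0.75 and 1.85 for Ankrd37. Wdr5b, which overlaps Fam162a, did not exceed 0.822 FPKM, and Gm26885, which overlaps Pim1, did not exceed 0.757.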

How the data were processed

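Polyadenylated RNA of 9 libraries was sequenced after a TruSeq Stranded mRNA preparation, per the labels' protocols. The authors deposited gene-level FPKM values, 1 column per library. FastQC 0.11.8, cutadapt 1.9.1, HISAT2 2.0.4, StringTie 1.3.4d and mm10 are named in the submitters' processing notes. The sources used here name no annotation release. FPKM carry no read counts, so depth is unknown and no counting interval is given.

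Entries that reached 1 FPKM in 3 or more of the 9 libraries (11856 of 26445) were tested on log2(FPKM + 1) with limma 3.58.1 in R 4.3.3, by group means with a mean-variance trend over all 9 libraries. Tests were two-sided, with Benjamini-Hochberg adjustment over all tested genes and calls at an adjusted p of 0.05. This scale understates changes of low genes. The fit was checked on simulated data with independent normal noise, in which 200 genes were changed at 8% against 21%. It recovered 111 of them at a log2 change of 0.5 and 173 at a change of 1, with 2 and 14 false calls. Many changes of 0.5 were thus missed in the simulation. At 8% against 21% more genes were called in the data, and its libraries share deviations, so this recovery need not hold there.

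Members and lists were chosen with earlier results of these data known. All members were described by role. Of other lists, cell type markers apart, only called genes, at most 4 per comparison, and genes chosen after their values were seen (Epas1) were named. The cell type markers Krt8, Pax6, Trp63, Cd14, Ptprc and Adgre1 were named although they were not called or not tested. Where entries shared a symbol in a list, the entry with the highest mean was used. Alternatives were a pseudocount of 0.1, other filters, rescalings, fits to 6 libraries, the replicate block and leaving out each library.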

Additional observations from a re-analysis of the deposited data

How the results depend on the processing

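Members called higher and lower at 8% against 21% oxygen (4 and 2 as reported) were 2 and 1 without the filter on low values, 1 and 1 in the fit to the 6 libraries compared, 4 and 1 after either quantile normalization or median-ratio rescaling, and 3 and 1 with the replicate block. Leaving out 1 library gave 1 to 4 higher and 1 to 5 lower. At 1% against 21% (2 and 0), 1 was higher at a pseudocount of 0.1 or after quantile normalization, 0 without the filter, with the replicate block or without all 3 libraries numbered 2 (a setting chosen after seeing the data), and 1 was lower at a mean of at least 5 FPKM. Leaving out 1 library gave 0 to 5 higher. At 1% against 8% (0 and 0) the fit to 6 libraries gave 4 and 1, and leaving out 1 library 0 to 4 and 0 to 1. No call of a member changed sign.

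All genes called at 8% against 21% (993 higher, 1772 lower) were 565 and 1041 in the fit to 6 libraries, 497 and 909 without the libraries numbered 2, and 548 to 1134 and 931 to 1853 with 1 library left out. At 1% against 21% (160 and 343) they were 76 and 146 without the filter, 31 and 41 with the replicate block, 28 and 36 when only the 6 compared libraries were fitted, 4 and 2 without the libraries numbered 2, 22 to 271 and 39 to 612 with 1 library left out, and 197 and 174 lower after median-ratio and quantile scaling. At 1% against 8% (8 and 7) they were 2 and 2 without the filter, 30 and 26 where the mean was 5 FPKM or more, 0 and 1 with the replicate block, 265 and 219 when only the 6 compared libraries were fitted, 1 and 4 without the libraries numbered 2, and 0 to 238 and 1 to 197 with 1 library left out. The causes were not tested, beyond the smaller number of libraries or the different set of genes. Correlations of the deviations of same-numbered libraries over all genes lay between −0.303 and 0.095, so the numbers were not taken to pair the libraries. Over the 24 members alone they were 0.385, 0.535 and 0.582 between 21% and 8%, and between −0.461 and 0.00791 for the other pairs of levels. With the replicate block Ccng2 and Hilpda were not called at 8% against 21% (adjusted p = 0.0574 and 0.0805), nor Bhlhe40 and Narf at 1% against 21% (0.0945 and 0.0975). The cells' identity, the duration of exposure and the depth limit what these FPKM values can show.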
